A study of Mus musculus with 8 samples.

Results

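The 33 genes described here encode proteins of the peroxisome. They were taken from a list of peroxisome assembly factors and peroxisomal enzymes, by matching the accession of each array probe to a gene name. All 33 were represented, by 41 of the 55681 probes other than controls, and all 33 were among the 11453 genes tested. RNA came from the red part of the gastrocnemius of 4 wild type mice and 4 mice homozygous for a mutant Pus1, the gene of pseudouridine synthase 1, a tRNA-modifying enzyme. The mice were 14 to 16 weeks old, on a C57BL/6J background after 5 backcross generations. Each of 4 two-colour arrays carried 1 wild type and 1 mutant of the same sex and individual number. Pairs 1 and 2 were male and pairs 3 and 4 female, and the dyes were exchanged within each sex, with the wild type in Cy3 in pairs 1 and 3. Which part of Pus1 is altered, and in which tissues, is not stated in the labels. The series' design text calls the samples of a genotype biological replicates.

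Peroxisomes are organelles with a single membrane that shorten fatty acids too long or too branched for mitochondria, make the first intermediates of ether lipids and break down hydrogen peroxide. They have no genome, so their proteins are made in the cytosol and imported folded by the PEX proteins, the peroxins. In skeletal muscle they are small and pass chain-shortened acyl groups on to mitochondria as carnitine esters.

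The Pus1 transcript had log2 levels of 8.42 to 9.13 in the 4 wild types. In the 4 mutants it read 6.60 to 7.12 and was well above background in none, so only a bound can be given. Pus1 was at least 3.57-fold lower in the mutants. The limma adjusted p of 0.0454 belongs to the measured ratio and not to this bound, and Pus1 entered that test through the wild types alone. The call was lost with a normexp offset of 10, the scanner's ratio or the authors' deposited values, where 0 of all genes passed. With no background subtraction or with no filter 2 of all genes passed, as in the main fit. The bound sets the wild type mean against the mean of, per mutant, its own value or the lowest signal well above background, whichever was higher. The share of probes above background ran from 39.7% to 47.3% among the samples, and all 12 listed skeletal muscle markers were above background in each of the 8 samples. The 2 male wild types had the highest shares, 45.0% and 47.3%, against 39.7% to 42.5% in the other samples. Liver markers were measured as a check: the log2 of their summed signal was 9.86 in wild type 1 and between 8.41 and 8.89 elsewhere, with Apoa1 and Ttr above background in no sample.

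None of the 33 peroxisomal genes passed the test for a change between the genotypes, and nearly all fitted changes were small. By limma, 0 of 33 passed an adjusted p of 0.05, where 0.0175% of all tested genes passed, and 1 of 33 had an unadjusted p under 0.05, where 5.87% of all genes did. That gene, Lonp2, was lower in the mutants, as were 2.46% of all genes at that unadjusted p. Fitted changes were positive in 17 genes and negative in 16, where 54.2% of all genes were positive, with a median log2 change of 0.0039 against 0.012 over all tested genes. The median of the absolute change was 0.078, against 0.074 over all genes. All 33 genes were above background in all 8 samples, so none entered through 1 genotype alone.

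Within the main fit, with 1 probe per gene, the intervals also limit how large a change on that probe could be. They are not adjusted for the number of genes. For 32 of the 33 genes the 95% interval of the change lay within 1.5-fold in either direction, as it did for 92.4% of all genes. For 27 genes it lay within 1.25-fold, against 62.4% of all genes. The exceptions to the narrower bound were Cat, Abcd2, Far1, Decr2, Lonp2 and Pex5, and Cat alone exceeded the wider one. In 0 of 33 genes did the 4 wild type levels and the 4 mutant levels fall apart without overlap, where 1.21% of all genes did so. The ratio had 1 direction on 4 of 4 arrays in 3 genes, Pex5, Gnpat and Lonp2, where 10.4% of all genes did so.

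**Figure D1:**
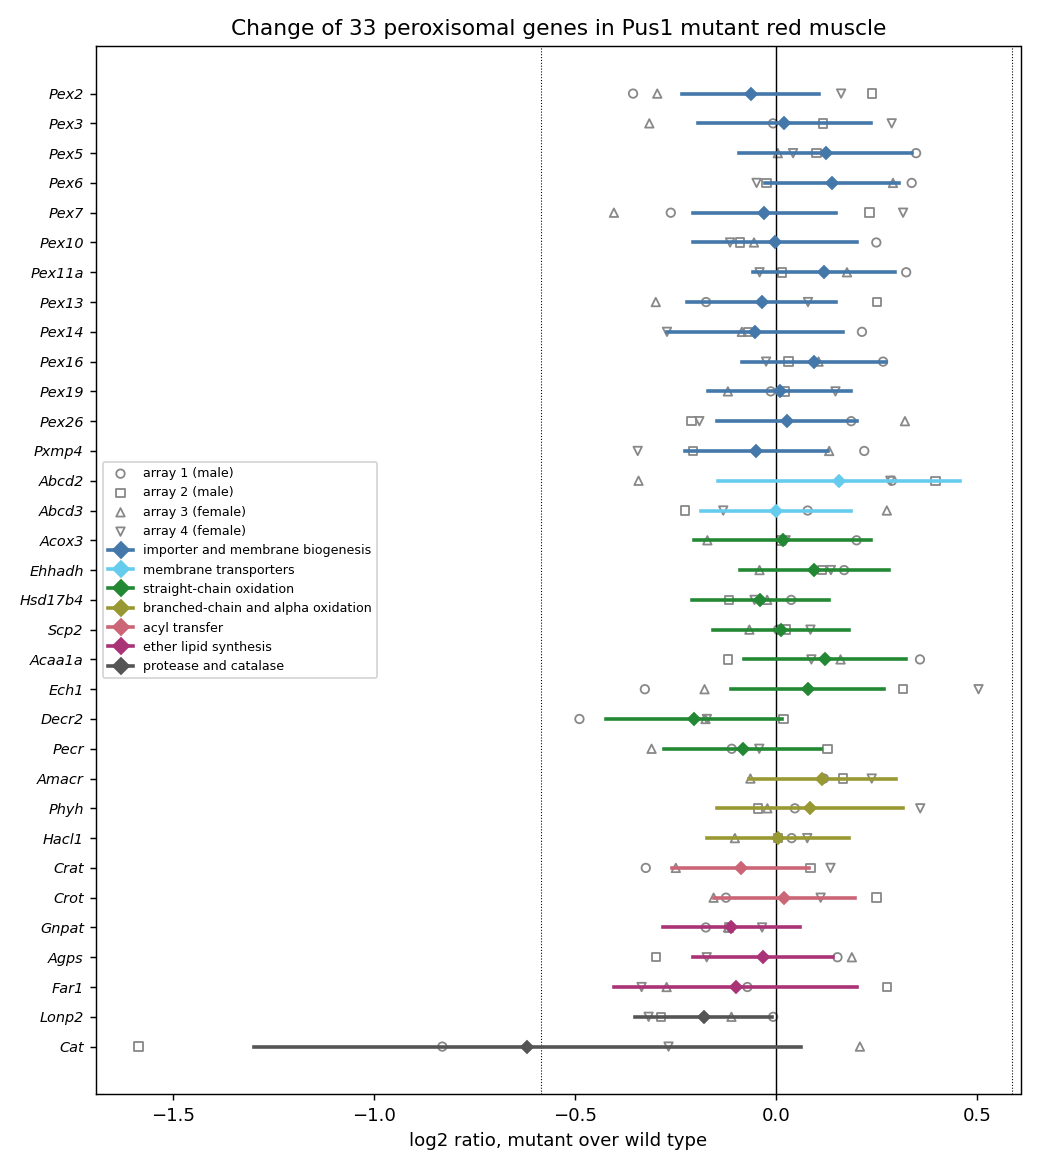
Log2 ratio of mutant over wild type for each of the 33 genes, coloured by role. Diamonds are fitted changes from the fit with a dye term, bars their 95% intervals, open symbols the 4 arrays, and dotted lines mark 1.5-fold. Only the interval of Cat crosses a dotted line, from -1.30 to 0.060.

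Promoters of the 3 genes with the smallest p for genotype, Lonp2, Decr2 and Cat, are shown for reference, from 250 bases before to 50 bases after the transcription start. Sequences are RefSeq's for GRCm38.p6, 5′ to 3′ on the gene's strand. Capitals mark the GC box GGGCGG or its reverse complement CCGCCC, bound by Sp1-type factors, and the hexamer AGGTCA or TGACCT, the unit of nuclear receptor sites. The Lonp2 promoter at chr8:86623793-86624092 on the plus strand, the first of 2 listed for the gene, holds 5 GC boxes. The second Lonp2 promoter, not shown, holds 0, with a GC content of 46.3% against 72.0% in the first. The Decr2 promoter at chr17:26090115-26090414 on the minus strand holds 3 GC boxes. The Cat promoter at chr2:103485104-103485403 on the minus strand holds 1 GC box and 1 hexamer.
Lonp2: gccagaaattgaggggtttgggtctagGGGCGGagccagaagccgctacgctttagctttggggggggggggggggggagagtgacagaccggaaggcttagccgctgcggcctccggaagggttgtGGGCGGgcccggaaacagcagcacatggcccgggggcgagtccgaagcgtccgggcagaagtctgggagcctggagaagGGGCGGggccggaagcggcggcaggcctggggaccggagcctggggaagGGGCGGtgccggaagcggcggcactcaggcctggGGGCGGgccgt
Decr2: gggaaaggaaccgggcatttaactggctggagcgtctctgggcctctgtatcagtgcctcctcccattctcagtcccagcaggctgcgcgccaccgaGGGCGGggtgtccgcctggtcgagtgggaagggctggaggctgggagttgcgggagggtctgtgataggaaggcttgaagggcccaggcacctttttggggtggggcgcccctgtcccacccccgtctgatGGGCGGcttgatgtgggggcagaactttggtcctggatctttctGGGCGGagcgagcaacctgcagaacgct
Cat: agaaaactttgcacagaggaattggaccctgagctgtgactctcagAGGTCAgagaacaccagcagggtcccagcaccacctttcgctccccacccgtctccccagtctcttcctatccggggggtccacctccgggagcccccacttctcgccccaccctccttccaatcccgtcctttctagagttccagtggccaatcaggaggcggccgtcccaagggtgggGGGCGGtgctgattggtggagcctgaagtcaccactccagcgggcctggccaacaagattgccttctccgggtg

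The promoter table gave entries for 27 of the 33 genes. A GC box on either strand occurred in 23 of these 27 genes and in 38.2% of the 27025 genes with an entry. The 27 were all above background in this muscle, while the 27025 were not limited to tested genes, so the sets are unlike. The TATA box TATAAA, the classical core promoter element, occurred on either strand in 3 of 27 (Pex14, Pex16 and Pex26), against 15.7%. AGGTCANAGGTCA, a pair of hexamers 1 base apart of the kind bound by the PPAR and RXR receptors, occurred in 0 of 27 and in 0.0481% of all genes. The single hexamer, which overlaps that motif, was found in Cat, Phyh and Scp2, against 18.1% of all genes. Median GC content was 58.8% in the 32 promoters of these genes and 52.7% in all 32851 promoters. These matches describe letters in the window and were not tested.

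Genes of assembly and membrane biogenesis were the largest group, with 13 members. They were 7 higher and 6 lower in the mutants, with fitted log2 changes from -0.064 to 0.14 and a median of 0.0081. None passed (0 of 13 by limma, also 0 at an unadjusted p under 0.05). Pex6, an ATPase that pulls the import receptor out of the membrane for reuse, had the highest fitted value of the group. Its log2 levels were 10.15, 10.58, 10.44 and 10.71 in the wild types of pairs 1 to 4. The mutants of the same pairs had 10.48, 10.55, 10.73 and 10.66. Mutant values lay inside or just above the wild type range, and the change was 0.14 ± 0.07 (SE, n = 4 arrays, limma adjusted p = 0.707). A second Pex6 probe gave 0.065 and had the same sign on 4 of 4 arrays.

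Pex5, the soluble receptor that recognises the C-terminal import signal of most matrix proteins, was at 9.33, 9.77, 9.80 and 9.48 in wild types 1 to 4. In mutants 1 to 4 it was at 9.68, 9.87, 9.80 and 9.52. The genotypes overlapped, and 4 of 4 array ratios were above 0, from 0.0036 in pair 3 to 0.35 in pair 1 (change 0.12 ± 0.08 SE, limma adjusted p = 0.736). The change was 0.037 without replicate 1 and 0.21 without replicate 3. Pex11a, which elongates and divides peroxisomes, measured 12.20, 12.27, 11.98 and 12.12 in wild types and 12.53, 12.28, 12.16 and 12.07 in mutants. Mutant 1 was the highest sample, the other mutants lay within or close to the wild type range, and the change was 0.12 ± 0.07 (SE, limma adjusted p = 0.710). Pex14, part of the docking complex at the membrane, stood at 9.34, 9.48, 9.50 and 9.49 in wild types against 9.56, 9.41, 9.41 and 9.22 in mutants. Its spread among mutants was wider than among wild types, and the change was -0.054 ± 0.086 (SE, limma adjusted p = 0.892).

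The other 9 assembly genes stayed within a fitted change of -0.064 for Pex2 and 0.094 for Pex16. They comprise Pex3, Pex16 and Pex19, which insert membrane proteins, Pex7, the receptor for the N-terminal import signal, Pex13 of the docking complex, Pex2 and Pex10, ubiquitin ligases of the receptor cycle, and Pex26, the membrane anchor of the Pex6 ATPase. Pxmp4, a peroxisomal membrane protein, was at -0.051. In 8 of the 13 genes the normalised ratio of the arrays switched sign with dye orientation. Pex7, for example, had ratios of -0.26, 0.23, -0.40 and 0.32 on arrays 1 to 4, a fitted genotype change of -0.030 ± 0.070 (SE) and a dye term of -0.30. Over the 33 genes 13 split this way, where 30.0% of all tested genes did. With balanced dyes the fitted change is the same with or without the dye term, which acts on its error. For Pex6 the SE was 0.066 with the term and 0.105 without it, at a change of 0.14 in both fits.

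The membrane transporters carry acyl groups into the organelle. Abcd3, which imports branched-chain and dicarboxylic acyl groups, had levels of 12.39, 12.89, 12.18 and 12.35 in wild types and 12.47, 12.66, 12.46 and 12.21 in mutants. All mutant values lay within the wild type range, and the change was -0.0019 ± 0.0736 (SE, limma adjusted p = 0.995). Abcd2, a carrier of very long and polyunsaturated chains, had the highest fitted change of all 33 genes, 0.16 ± 0.12 (SE, limma adjusted p = 0.754). Wild types 1 to 4 read 8.25, 7.83, 8.46 and 8.19, and mutants 8.54, 8.23, 8.12 and 8.47. The genotypes overlapped, with positive ratios in pairs 1, 2 and 4 and a ratio of -0.34 in pair 3. Without replicate 1 the change was -0.0017.

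The 8 enzymes of beta-oxidation and its auxiliary reactions were 5 higher and 3 lower, with a median change of 0.013 and values from -0.21 to 0.12. None passed (0 of 8 by limma, also 0 at an unadjusted p under 0.05). Acaa1a, the thiolase of the last step, read 13.59, 14.05, 13.58 and 13.76 in wild types and 13.95, 13.93, 13.74 and 13.85 in mutants. The mutants fell within the wild type range, and the change was 0.12 ± 0.08 (SE, limma adjusted p = 0.724), or 0.071 and 0.069 without replicates 1 and 4. Ech1, an isomerase for dienoyl-CoA that is found in mitochondria as well, read 13.96, 13.90, 13.86 and 13.52 in wild types and 13.64, 14.21, 13.68 and 14.02 in mutants. Its 4 ratios switched sign with the dye, and the fitted change was 0.078 ± 0.075 (SE, limma adjusted p = 0.806).

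Decr2, the peroxisomal 2,4-dienoyl-CoA reductase needed for unsaturated chains, had the lowest value of the enzymes of this group. Wild types 1 to 4 measured 8.60, 8.40, 8.50 and 8.37, and mutants 1 to 4 measured 8.11, 8.42, 8.32 and 8.20. Of the 4 mutants 3 lay below every wild type and mutant 2 lay among them, and the change was -0.21 ± 0.09 (SE, limma adjusted p = 0.707), or -0.13 without replicate 1. Beside it Ehhadh (0.094) and Hsd17b4 (-0.040), the L- and D-specific bifunctional enzymes, moved by less. So did Scp2 (0.011), a sterol carrier with thiolase activity, Acox3 (0.016), an acyl-CoA oxidase, and Pecr (-0.084), an enoyl-CoA reductase. Second probes of Scp2 and Acox3 gave 0.029 and -0.062.

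The role group of branched-chain and alpha-oxidation held 3 genes, with fitted changes of 0.11 for the racemase gene Amacr, 0.084 for Phyh and 0.0039 for the lyase gene Hacl1. Each gene was given a single role, so the group need not hold every gene of these pathways. Phyh, the phytanoyl-CoA hydroxylase that starts alpha-oxidation, read 13.73, 14.05, 13.83 and 13.32 in wild types and 13.78, 14.00, 13.81 and 13.68 in mutants. The mutants lay within the wild type range, whose lowest sample was wild type 4, and the change was 0.084 ± 0.091 (SE, limma adjusted p = 0.832).

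Crat and Crot transfer chain-shortened acyl groups to carnitine for export. Crot read 10.19, 10.25, 10.28 and 10.28 in wild types and 10.06, 10.50, 10.13 and 10.39 in mutants. The wild types sat together inside the mutant range, and the change was 0.019 ± 0.069 (SE, limma adjusted p = 0.952). Crat was at -0.089 ± 0.067 (SE, limma adjusted p = 0.752).

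The 3 genes of ether lipid synthesis all had negative fitted changes, and none passed (0 of 3 by limma, also 0 at an unadjusted p under 0.05). Gnpat, whose acyltransferase makes the first intermediate, read 14.10, 14.12, 13.90 and 13.99 in wild types and 13.92, 14.00, 13.78 and 13.95 in mutants. Each mutant was below the wild type of its own pair while the genotypes overlapped, and the change was -0.11 ± 0.07 (SE, limma adjusted p = 0.711). Agps, the next enzyme, was at -0.033 ± 0.068 (SE).

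Far1, which makes the fatty alcohol for the ether bond, was close to background, and 2 further Far1 probes were above background in no sample. Its tested probe read 7.23, 6.94, 7.46 and 7.50 in wild types and 7.15, 7.21, 7.19 and 7.16 in mutants. The mutants fell within the wild type range, and the change was -0.10 ± 0.12 (SE, limma adjusted p = 0.846). Without replicate 4 the change was 0.052.

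Lonp2, the peroxisomal protease that degrades damaged matrix proteins, was the gene with an unadjusted p under 0.05. Its levels were 12.29, 12.29, 12.41 and 12.72 in the wild types of pairs 1 to 4. The mutants had 12.28, 12.00, 12.29 and 12.40. Wild type 4 was the highest sample and mutant 2 the lowest, with overlap between them. Array ratios were -0.0081, -0.29, -0.11 and -0.32, and the change was -0.18 ± 0.07 (SE, limma adjusted p = 0.707).

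**Figure D2:**
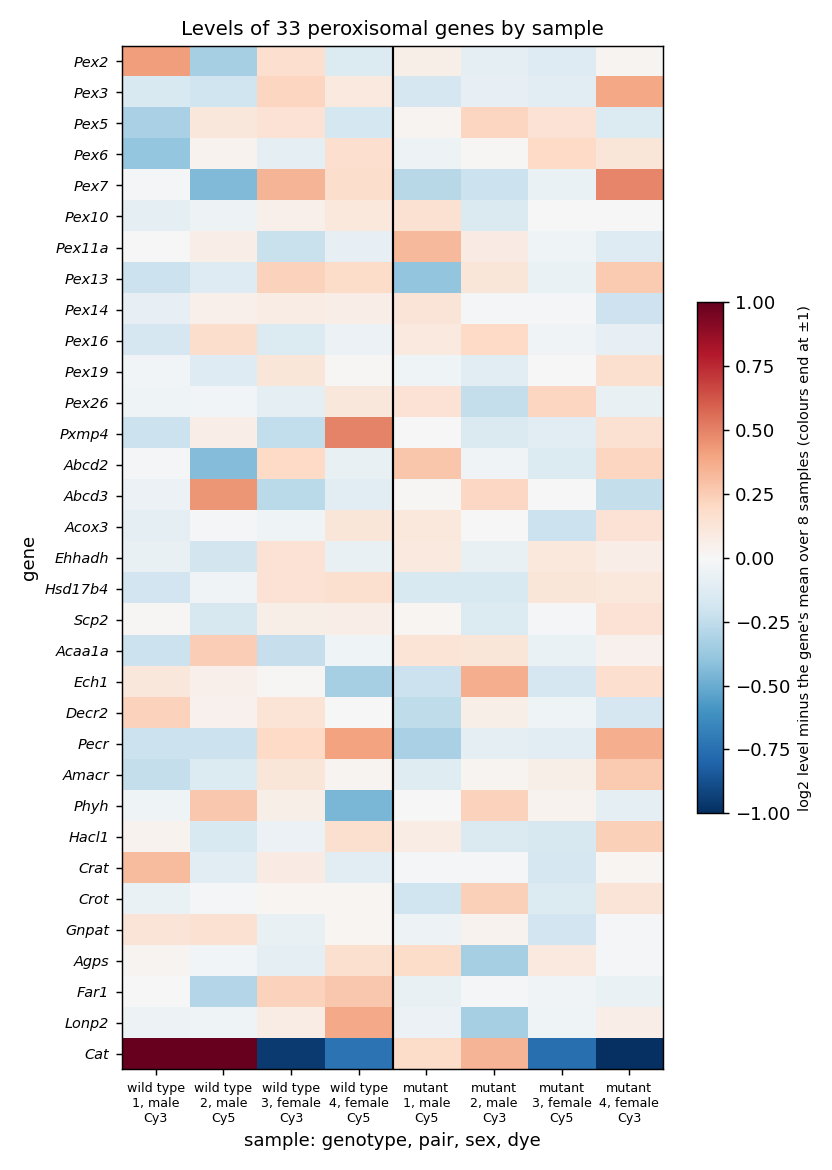
Log2 level of each gene in each of the 8 samples, as the difference from the gene's mean over the samples, with colours ending at ±1 while Cat reaches 1.92 in wild type 2. Apart from Cat, the values run from -0.46 (Phyh in wild type 4) to 0.50 (Pxmp4 in wild type 4).

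Cat, which encodes catalase, the enzyme that breaks down hydrogen peroxide, was the gene that varied most among the samples. On its brighter probe it read 12.86 and 13.77 in the male wild types and 12.03 and 12.19 in the male mutants. Female wild types were at 10.89 and 11.11, and female mutants at 11.10 and 10.84. Males thus lay above females in both genotypes, and the male wild types stood above every other sample. Over both sexes the change was -0.62 ± 0.27 (SE, n = 4 arrays, limma adjusted p = 0.707), with ratios of -0.83, -1.59, 0.21 and -0.27. It was -0.36 without replicate 1, -0.29 without replicate 2 and -0.95 without replicate 4.

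The genotype effect on this probe differed between the sexes. It was -1.21 in males and -0.030 in females, a difference of -1.18 ± 0.15 (SE, 1 residual degree of freedom, limma adjusted p = 0.00582). With 6.05 prior degrees of freedom, that SE draws mostly on the spread of all tested genes and less on that of Cat itself. In a fit with no dye term the SE was 0.32. Of the 33 genes 1 passed this test, where 3.89% of all tested genes did, and 2 of 33 had an unadjusted p under 0.05 (Cat and Far1), where 12.7% did. The call was lost with no replicate block (adjusted p = 0.140), with no dye term (adjusted p = 0.682), with the ratio computed by the scanner software (0.0732) and in the authors' deposited table (0.0699). Leaving out a pair requires a fit with no dye term, which called 0 of all genes with 4 pairs. Without replicate 1 it called 128 of all genes, Cat not among them, and without replicate 2, 3 or 4 it called 0. The difference was then -1.56, -0.80, -0.94 and -1.42 without replicates 1, 2, 3 and 4 (adjusted p from 0.0754 to 1.00).

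The second Cat probe did not show this pattern. It carries the same transcript accession and was above background in all 8 samples. Wild types 1 to 4 measured 7.79, 7.87, 8.10 and 8.09 on it, and mutants 1 to 4 measured 8.10, 7.97, 7.68 and 8.33. The male wild types were here the lowest wild types, and the ratio was opposite in sign to that of the brighter probe on each of the 4 arrays. The male minus female difference was 0.29 ± 0.21 (SE, limma adjusted p = 0.633 over every tested probe), against -1.18 for the brighter probe in the same fit (adjusted p = 0.00139). In that fit 5.91% of probes passed. The change over both sexes was 0.060 ± 0.136 (SE). Acox3, Pex6 and Scp2, the other 3 genes with 2 tested probes, differed between their probes by at most 0.078 in the fitted change.

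**Figure D3:**
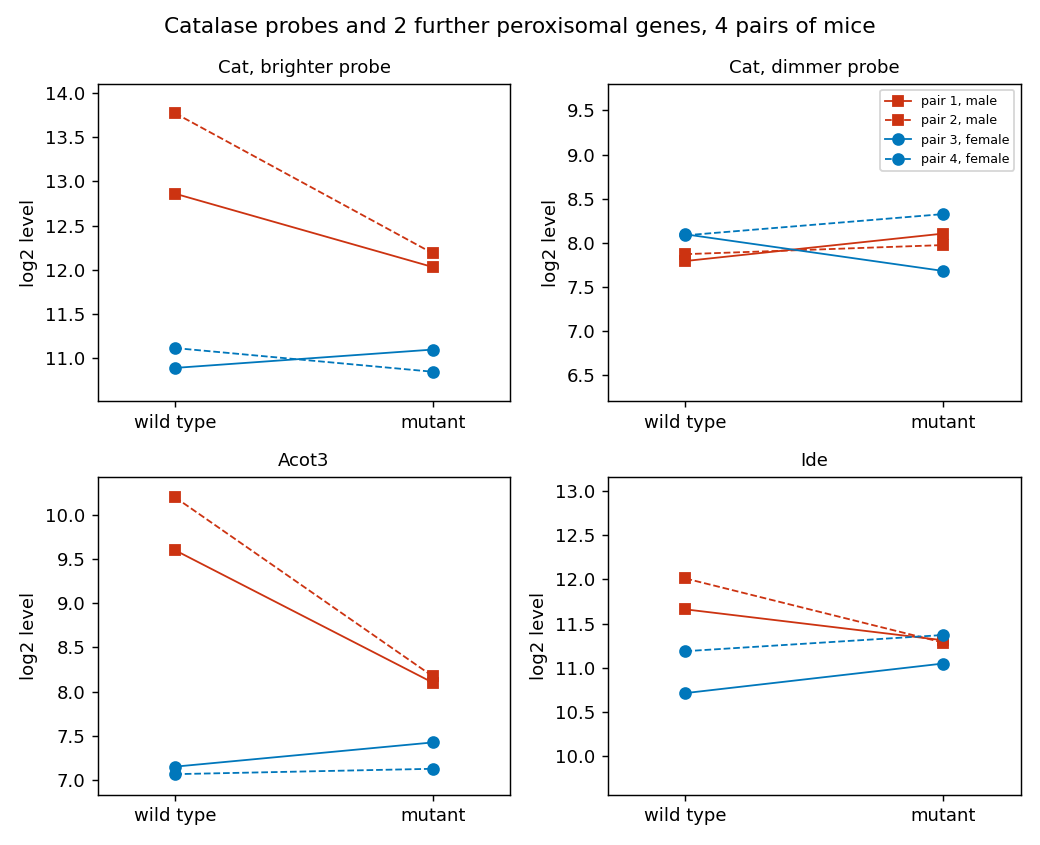
Log2 levels in the 4 pairs for both Cat probes, Acot3 and Ide, wild type at the left and mutant at the right, with vertical axes of equal span. The male wild types stand highest for the brighter Cat probe, Acot3 and Ide, and lowest among the wild types for the dimmer Cat probe.

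Of the 11453 tested genes 445, or 3.89%, were called between the sexes, most of them in 1 direction. Cat belonged to the 420 of these genes whose effect was called lower in males. A second tested probe existed for 89 of them. That probe, or 1 of them where a gene had several, had the same sign in 46 of the 89. In 20 of the 89 at least 1 further probe was called, in either direction. Of all tested probes 5.91% were called in that fit, a share per probe and not per gene. The median male minus female difference was -1.31 on the probes that represented these 89 genes and -0.050 on the second ones. The first probes were picked through this contrast and the second ones were not. Both measure the same genes in the same 8 samples, so the second probes are not an independent check.

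Red cells contain much catalase, and erythroid markers were measured for that reason. The log2 of their summed signal in pairs 1 to 4 was 17.50, 17.47, 16.44 and 18.41 for the wild types. For the mutants it was 17.54, 17.79, 18.42 and 19.82. Of 8 listed erythroid markers 6 were tested. All 6 had a positive fitted change, where 54.2% of all genes did, and 0 of 6 passed for genotype by limma. Between the sexes 5 of the 6 passed, where 3.89% of all tested genes did. Most of the 6 are globin genes, so they are not independent markers. Their median male minus female difference was -1.53, of the same sign as that of the brighter Cat probe. Mutant 4, the highest sample for this list, was the lowest for that probe, and the male wild types did not stand out. Adipocyte markers ran from 14.78 to 15.39 in wild types and from 14.90 to 15.41 in mutants, with Lep above background in no sample. The part of these cells, and of the liver markers given above, in the Cat values was not tested.

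No gene other than Cat passed the test between the sexes. Far1 had an effect of 0.10 in males and -0.30 in females (difference 0.41 ± 0.16 SE, limma adjusted p = 0.354), and Abcd2 had 0.34 and -0.030 (0.37 ± 0.17 SE, adjusted p = 0.446). Pex14 and Pex5 followed with differences of 0.25 ± 0.14 (SE) and 0.20 ± 0.15 (SE), at limma adjusted p of 0.551 and 0.681. None of these 4 passed, and with 2 pairs a sex their errors are wide. The median of the absolute difference between the sexes was 0.085 over the 33 genes and 0.14 over all tested genes.

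**Figure D4:**
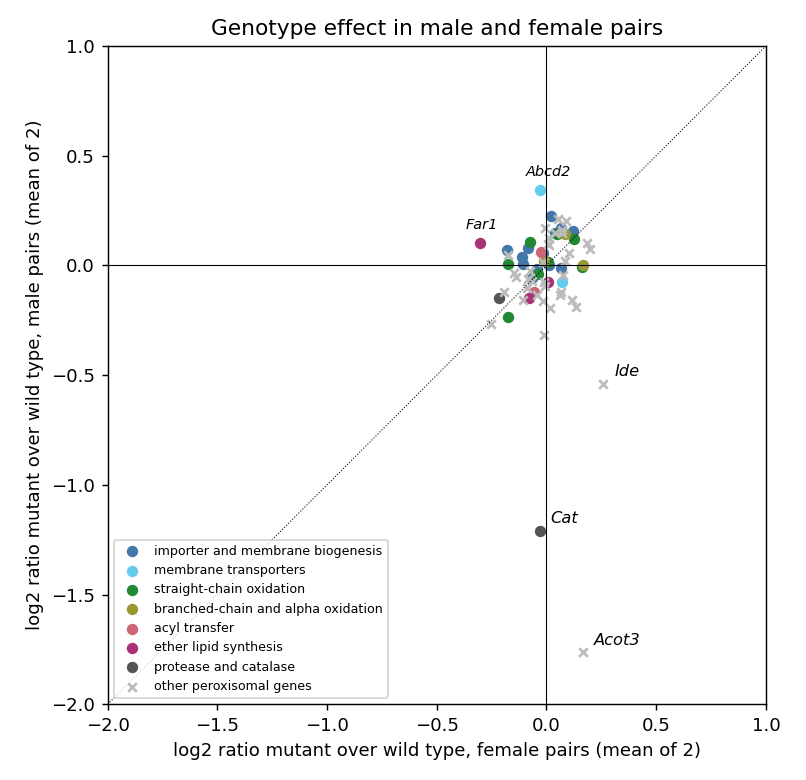
Mean log2 ratio of mutant over wild type in the 2 male pairs against the 2 female pairs, for the 33 genes by role and for 37 other peroxisomal genes as crosses. Most points lie close to the origin, while Cat, Acot3 and Ide lie far below the diagonal of equal effects.

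Of 50 further peroxisomal genes listed, 37 were tested, 15 higher and 22 lower in the mutants, with a median change of -0.036. None passed for genotype (0 of 37 by limma, with 1 at an unadjusted p under 0.05). That gene was Acox2, the oxidase for branched-chain and bile acid intermediates. It was above background in 4 of 4 wild types (7.10 to 7.39) but in 1 of 4 mutants (6.85 to 7.11). Acox2 thus entered the test through the wild types alone, and its size of change is not given. Acot8, a broad acyl-CoA thioesterase, was at 0.14 ± 0.07 (SE) and did not pass. Pxmp2, a peroxisomal membrane channel gene on the same chromosome as Pus1, is not counted among these genes and was at -1.08 ± 0.07 (SE, limma adjusted p = 0.0653).

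Of these 37 genes 2, Acot3 and Ide, passed the test between the sexes, where 3.89% of all tested genes did, so their number is near that of genes in general. Acot3, a peroxisomal thioesterase for long chains, read 9.60 and 10.20 in male wild types, 8.10 and 8.17 in male mutants, and 7.06 to 7.42 in the 4 females. The order is that of the brighter Cat probe, and the difference was -1.93 ± 0.15 (SE, limma adjusted p = 0.00156). Its probe was above background in 3 of 4 wild types and 4 of 4 mutants, and a second Acot3 probe was too dim to be tested. The female levels on the tested probe were close to background, where a fall in the mutants could hardly be seen. The difference between the sexes therefore has no firm size for Acot3. Ide, the insulin-degrading enzyme, which carries a peroxisomal import signal, read 11.66 and 12.01 in male wild types against 10.71 to 11.37 in the other 6 samples (difference -0.80 ± 0.15 SE, limma adjusted p = 0.0295).

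PPAR receptors control many peroxisomal genes in rodent liver. Of 26 listed regulators and targets 23 were tested, 12 higher and 11 lower, with a median change of 0.0012. None passed for genotype (0 of 23 by limma, also 0 at an unadjusted p under 0.05). The smallest p were those of Ucp3, a mitochondrial carrier, at -0.27 ± 0.14 (SE) and Nr1h3, the nuclear receptor LXR alpha, at 0.10 ± 0.07 (SE). Between the sexes 1 of the 23 passed, where 3.89% of all tested genes did. That gene, Angptl4, a secreted inhibitor of lipoprotein lipase, had ratios of 1.98, -1.11, 0.19 and -1.77 and a dye term of 1.26. Its male minus female difference was 1.23 ± 0.26 (SE, limma adjusted p = 0.0492).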

How the data were processed

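Intensity in the deposited scanner files is the median brightness of each spot and its local background, per the file headers (Agilent Feature Extraction 10.7.3.1). That program's ratio is log10 of Cy5 over Cy3, per the file headers. A value table, also deposited by the authors, holds log2 values, 1 column per sample. Set against the scanner ratios it ran in the same direction (r from 0.980 to 0.989), with each probe centred on its median and column medians from -0.062 to 0.019. Its other steps are not stated in the labels. Flags of 0 or 1 mark spots above background, per the file headers.

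In R 4.3.3 with limma 3.58.1, normexp (offset 50), within-array loess and lmFit with eBayes and a dye term were applied, with mutant over wild type as the ratio. Median spot signals were used because mean signals are not among the columns used here. Levels per sample are log2 values after Aquantile between arrays. A probe needed at least 50% of its spots above background in each of the 4 samples of a genotype, and a gene was its brightest kept probe. Names came from RefSeq accessions (GRCm38.p6), matched for 27656 probes. The genotype by sex term came from a separate limma fit with the dye and sex terms, with 1 residual degree of freedom against 2 for genotype. Adjusted p are Benjamini-Hochberg over all tested genes, 2-sided, threshold 0.05. The shared array pairs the samples, and within pairs the correlation of deviations from the genotype mean was 0.38, 0.25, 0.12 and 0.50. All 4 arrays share a slide and a scan, so neither could be tested as a batch. Precision is limited by how few arrays there are. The fit was tested on simulated data.

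The genes and lists were chosen with earlier results of these data known. Values per sample are given for genes called for genotype or sex, the 5 highest and 5 lowest changes, the 5 smallest p of the sex term and the brightest gene of each role. Of the other lists, called genes and up to 3 of smallest p are named, except that some items are not reported here.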

Additional observations from a re-analysis of the deposited data

Results flagged for a closer look

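The genotype effect on Cat differed between the sexes by -1.18 on its brighter probe, that on Acot3 by -1.93, that on Ide by -0.80 and that on Angptl4 by 1.23, each as male minus female and past the threshold of the limma sex term. The female levels of Acot3 were close to background, so its difference has no firm size.

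Of 66 sets of 4 levels (33 genes, 2 genotypes), 2 held a sample far from its group by Dixon's criterion, which flags about 1 in 20 sets by chance. Pex3 stood at 9.59 in mutant 4, against 9.04 to 9.12 in the other mutants. Pex14 stood at 9.34 in wild type 1, against 9.48 to 9.50 in the other wild types.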

How the results depend on the processing

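The count of 0 peroxisomal genes changed with genotype held under 17 of 18 alternatives (by limma; between 0 and 3 genes had an unadjusted p under 0.05). With median centring it was 1, Cat at -0.58 (adjusted p = 0.0111), where 267 of all genes were called. The list median ran from -0.031 to 0.056, and 12 to 21 of the 33 genes were positive. The count of 1 gene (Cat) differing between the sexes was 0 with the scanner's ratio, the authors' deposited table, the mean of a gene's probes, the dimmest tested probe (chosen after seeing the data) and no dye term. With each replicate left out it was 0. For the pairing, a fit with no replicate block gave 0 for both counts. With the dimmest probe Cat turned to 0.060 overall and to 0.29 between the sexes. Small changes reversed sign. In female pairs alone Abcd2 was -0.030, Abcd3 0.071 and Crot -0.023. In male pairs alone Far1 was 0.10, Pex14 0.072 and Ech1 -0.0063. Far1 was 0.057 in the authors' deposited table, and Abcd3 was 0.029 with median centring and 0.00046 with a normexp offset of 10. With 1 replicate left out, Abcd2 ran from -0.0017 to 0.31, Far1 from -0.25 to 0.052, Pex14 from -0.13 to 0.021, Abcd3 from -0.051 to 0.047, Phyh from -0.017 to 0.18, Cat from -0.95 to -0.29, Pex5 from 0.037 to 0.21, Acaa1a from 0.069 to 0.17, Decr2 from -0.28 to -0.13, Ech1 from 0.031 to 0.12 and Crot from -0.015 to 0.054. The cause of these shifts was not tested. Naming by accession alone was not run separately, since the main naming already used accessions only.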
